A study of Mus musculus with 2 samples.

Results

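The Y RNAs Rny1 and Rny3, the vault RNA Vaultrc5, the 7SK RNA Rn7sk, the 7SL RNA genes Rn7s1 and Rn7s2, the RNase MRP RNA Rmrp and the RNase P RNA Rpph1 are small, stable, structured RNAs, and fragments of all 8 were present in small RNA libraries of mouse embryonic stem cells (mESCs). A tag, that is a distinct read sequence with its count, was taken as a fragment of one of these RNAs when it matched no miRNA hairpin and matched, without a mismatch and over its whole length, an annotated transcript with 1 of the 8 symbols. This gave 2782 tags of 1695245, and 8 gene symbols of the 33672 that were matched by reads. Rn7s1 and Rn7s2 are identical over 300 nt, so that all their reads are the same reads and 7 RNAs could be told apart. No tag was removed for a match to a hairpin.

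J1, an established line of mESCs, was grown on gelatin in both groups, and the medium of both held LIF, the cytokine that keeps mESCs undifferentiated, at 1000 U/mL. One group received the MEK inhibitor PD0325901 (PD) at 1 μM for 24 h, which stops MEK from activating ERK1 and ERK2, and the other received the solvent DMSO for the same time. RNA of 3 experiments was pooled before sequencing, so that each treatment has 1 library. There are thus no replicates, no p-values were computed, and the 95% intervals given with fold changes and shares cover the counting of reads only, not the variation between cultures or libraries.

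All of these RNAs are made by RNA polymerase III, act bound to proteins and do not code for protein themselves. Y RNAs fold back on themselves into a stem, bind the proteins Ro60 and La, and have been tied to RNA quality control and the start of DNA replication. Vault RNA belongs to the vault particle, 7SL RNA is the scaffold of the signal recognition particle that brings new secretory proteins to the endoplasmic reticulum, and 7SK RNA holds the elongation kinase P-TEFb inactive. RNase P RNA is the catalyst that trims the 5′ end of precursor tRNAs, and its relative RNase MRP RNA cuts precursor rRNA. Cells also contain shorter pieces of these RNAs, and small RNA libraries read such pieces without showing how much of the whole RNA was present.

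The sequences that carry most reads are shown first. The 5′ tags of the Y RNAs, which start at the first base of each transcript, are the most frequent tag of each RNA (30 nt in Rny1, 24 nt in Rny3), with capitals at the bases that are equal at the same position of Rny1 and Rny3. Over the first 24 bases the RNAs are equal at 17. The longest run of bases that the whole transcripts share is 12 nt, shorter than any read, so that no tag matched both.
Rny1, bases 1 to 30: GGcTGGTCCGAagGTAGTGagtTaTctcAa
Rny3, bases 1 to 24: GGtTGGTCCGAgaGTAGTGgtgTt

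The 3′ side of Rny1 gave tags that started at base 84, and the most frequent of them ended at base 105 or at base 110. In the first 2 sequences, capitals mark the bases that pair with bases 1 to 30 in the minimum free energy structure of the whole transcript. In it 23 of the first 30 bases are paired, 17 of them with bases 84 to 110, and the partners of the others are not marked. In Rny3, 21 of the first 24 bases are paired in this way. The abundant tags of the Y RNAs thus come from the arms of the predicted stem. The last 2 sequences lie between these arms and are in lower case throughout, with their pairing not marked. They are the Rny1 tag with a high fold change described below and the most frequent Rny3 tag that does not overlap its 5′ tag.
Rny1, bases 84 to 105: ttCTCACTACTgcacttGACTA
Rny1, bases 84 to 110: ttCTCACTACTgcacttGACTAGTCtt
Rny1, bases 52 to 71: cagattgaactcctgttcta
Rny3, bases 35 to 60: tgatcacaaccagttacagatttctt

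For 7SL RNA, the most frequent tag and the tag with the highest fold change lie over each other and are shown with their shared bases in capitals. For 7SK RNA, RNase P RNA and RNase MRP RNA, the most frequent tag of each comes first and the most frequent tag that does not overlap it second, in lower case throughout.
7SL, bases 192 to 212: AGGTCGGAAACGGAGCAggtc
7SL, bases 191 to 208: cAGGTCGGAAACGGAGCA
7SK, bases 244 to 266: ccattgtaggagaacgtagggta
7SK, bases 127 to 151: gctgcgcgctcggtcgaagaggacg
RNase P RNA, bases 225 to 244: cttggaacagactcacggcc
RNase P RNA, bases 152 to 171: cagactgggcaggagaagcc
RNase MRP RNA, bases 5 to 32: agctcgctctgaaggcctgtttcctagg
RNase MRP RNA, bases 132 to 151: caagtcactgttagcccgcc

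In the annotation, on GRCm38, Rny3 lies at chr6:47781624-47781725 on the plus strand and Rny1 at chr6:47788069-47788180 on the minus strand, 6343 bp apart. Rn7sk lies at chr9:78175303-78175633 on the minus strand, and neither it nor the Y RNA genes overlap another gene. Rn7s1 lies at chr12:69159295-69159594 on the plus strand, and Rn7s2 at chr12:69361182-69361481 on the minus strand, each inside exons of longer noncoding genes of the same strand. Rpph1 lies at chr14:50807449-50807767 on the minus strand, inside an exon of Ccnb1ip1 of the same strand. Rmrp lies on the minus strand of chromosome 4 with a transcript at chr4:43492783-43493063 and a shorter one inside it, opposite an exon of Ccdc107. Vaultrc5 lies at chr18:36801866-36802008 on the plus strand and overlaps no other gene. Positions below count from the first base of each transcript, for Rmrp that of the longer.

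The libraries held 18870345 clean reads for DMSO and 20944808 for PD. Levels are given in RPM, the number of reads scaled to 1000000 clean reads, and a count of 3 reads was worth 0.159 RPM with DMSO and 0.143 RPM with PD. The miR-290 cluster, the hairpins typical of mESCs, had 31103 and 26369 RPM, and the hairpins typical of neurons, liver, muscle, mesenchyme or blood had between 2.00 and 476 RPM, the neuronal ones 257 RPM with DMSO and 476 with PD. The read lengths of the libraries differed. Lengths of 28 to 32 nt took 7.11% of the reads with DMSO and 16.96% with PD, while lengths of 20 to 24 nt took 63.0% and 52.0%. The fold change of all reads of 1 length, PD over DMSO, was lowest at 21 nt among lengths of 18 to 34 nt, with 0.763, and was 4.53 at 30 nt and 11.6 at 32 nt. Whether this shift came from the treatment or from the preparation of 1 of the libraries cannot be told apart, and it is given beside the fragments it bears on.

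The 8 RNAs together had 53503 reads with DMSO and 61414 with PD, when each tag was counted once. This was 0.284% (95% Wilson interval 0.281 to 0.286) and 0.293% (0.291 to 0.296) of the clean reads, a fold change of 1.03 (1.02 to 1.05). Rny1 and 7SL RNA supplied most of these reads. Rny1 took 50.5% of them with DMSO and 52.7% with PD, and 7SL RNA 34.9% and 33.6%.

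Levels between RNAs were compared per 100 nt of transcript. On that scale Rny1 had the highest level, with 1278 RPM per 100 nt with DMSO and 1381 with PD, and 7SL RNA the next, with 330 and 328. Rny3 followed with 210 and 162, 7SK RNA with 37.4 and 43.3, and RNase P RNA with 14.7 and 18.7. The order of these 5 was the same in both libraries and no counting intervals of neighbours overlapped, with tags that match several genes counted in full for each. Vault RNA, with 7.56 and 7.11, and RNase MRP RNA, with 7.36 and 7.88, had overlapping intervals and could not be ordered. The order changed when only tags that match these RNAs alone were counted. 7SL RNA then had 8.04 and 6.43 RPM per 100 nt, below Rny3 and 7SK RNA, and RNase P RNA had 1.20 and 0.928, below vault RNA and RNase MRP RNA. This count also dropped reads that match the longer genes whose exons hold the loci of these RNAs. It kept 2.19% of the 7SL reads and 6.28% of the RNase P RNA reads, against 12.3% and 44.1% with such host genes allowed. The order with host genes allowed was not computed.

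Between treatments the total fragment level of no RNA passed the 1.5-fold difference used to call a change. The count was 0 of 8 higher and 0 of 8 lower, beside 10.2% of all gene symbols with at least 100 reads called higher in PD and 2.16% called lower. The median fold change of the 8 was 1.03, and that of all 7681 such symbols 1.04.

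Rny1 had 27000 reads (1431 RPM) with DMSO and 32387 (1546 RPM) with PD, a fold change of 1.08 (1.06 to 1.10). Rny3 had 4036 reads (214 RPM) and 3464 (165 RPM), a fold change of 0.773 (0.739 to 0.809). The Y RNAs, which bind the same proteins, thus differed in direction between these libraries, and their counting intervals did not overlap, but relative to all clean reads of the same lengths both were below 1, at 0.373 and 0.771.

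7SL RNA had 18652 reads (988 RPM) with DMSO and 20635 (985 RPM) with PD, a fold change of 0.997 (0.977 to 1.02). 7SK RNA had 2335 reads (124 RPM) and 3004 (143 RPM), a fold change of 1.16 (1.10 to 1.22). RNase P RNA had the highest fold change of the 8, 1.27 (1.16 to 1.38), with 886 reads (47.0 RPM) and 1247 (59.5 RPM). Its relative in RNase MRP gave few reads, as did vault RNA, and for both the interval included equal levels. RNase MRP RNA had 390 and 464 reads (20.7 and 22.2 RPM), a fold change of 1.07 (0.935 to 1.23). Vault RNA had 204 and 213 reads (10.8 and 10.2 RPM), a fold change of 0.941 (0.773 to 1.15).

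**Figure D1:**
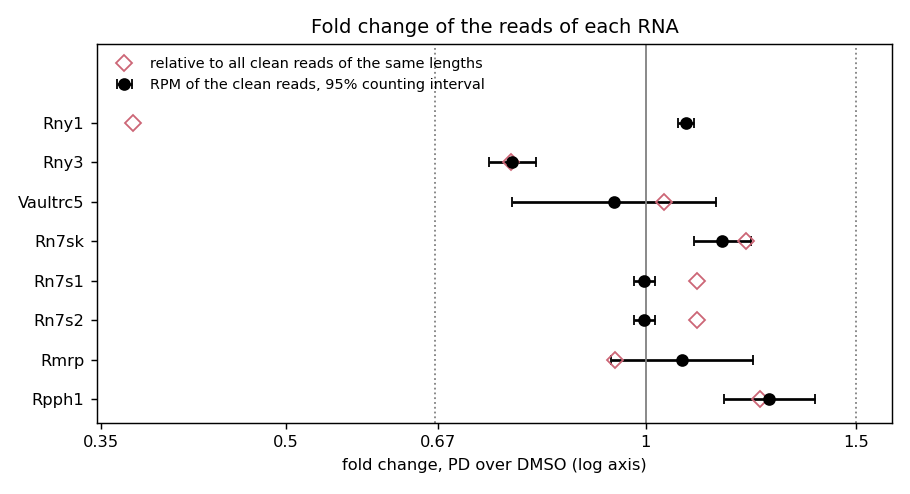
Fold change (PD over DMSO, log axis) of the reads of each RNA, 1 library per treatment. Filled points are the fold change of RPM with the 95% counting interval, open diamonds are relative to all clean reads of the same lengths, and dotted lines mark 1.5-fold either way; all filled points lie between 0.773 and 1.27, and the open diamond of Rny1 stands at 0.373.

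How far a read can be credited to one gene differed between these RNAs. Every Rny3 and vault RNA read matched no other gene symbol, and so did 99.4% of the RNase MRP RNA reads and 89.2% of the Rny1 reads, the rest of which matched mainly the Y RNA copy Gm24372. For 7SK RNA the share was 46.8%, since annotated copies such as Gm24447 share its interior. For RNase P RNA, 6.28% of the reads matched it alone and 44.1% matched it or its host gene Ccnb1ip1 alone, whereas 42.4% also matched the related gene Rprl2. For 7SL RNA, 2.19% of the reads matched Rn7s1 and Rn7s2 alone, and 12.3% matched no genes other than these and their host genes. Rn7s6 was matched by 82.9% as well, so that the 7SL values stand for a family of near-identical genes. With the tags of the members alone, RNase P RNA had 72 and 62 reads, a fold change of 0.776 (0.543 to 1.11) that included equal levels, and 7SL RNA had 455 and 404, a fold change of 0.8 (0.698 to 0.917).

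All fragments were read from the sense strand. The reverse complements of the RNAs were matched by 0 reads, except for 2 reads of 7SK RNA in the PD library.

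The Y RNA reads lay mainly at the ends of the transcripts. Of the Rny1 reads, 58.6% (58.0 to 59.2) with DMSO and 64.5% (64.0 to 65.0) with PD started within 3 nt of the 5′ end, and nearly all of these at base 1, with 15803 and 20853 reads. In Rny3 the 5′ end took a larger share, 93.9% (93.1 to 94.6) with DMSO and 91.9% (91.0 to 92.8) with PD. The 5′ reads of Rny1 had a fold change of 1.19 (1.16 to 1.21) and those of Rny3 0.757 (0.722 to 0.794). Over the lengths of the reads that start at base 1, all clean reads gave 4.21 for Rny1 and 0.997 for Rny3. Both sets of reads thus had lower fold changes than the libraries as a whole, by factors of 0.282 and 0.7585.

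The 3′ side of Rny1 was read almost as one block, which started at base 84 (7137 and 6775 reads) or base 83 (3648 and 4128 reads). Reads that started at bases 79 to 89, a window set around this peak after the data were seen, numbered 11003 with DMSO and 11157 with PD, a fold change of 0.914 (0.890 to 0.938). This block had 2 groups of ends, and they differed in fold change. Reads that stopped at bases 103 to 107 had 6847 and 5800 reads, a fold change of 0.763 (0.737 to 0.791), while those that ran on to bases 108 to 112 had 4148 and 5354 reads, 1.16 (1.12 to 1.21). Over the lengths of these reads, all clean reads gave 0.857 and 1.37, so that both groups had lower fold changes than the libraries as a whole, by factors of 0.891 and 0.851.

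Rny3 gave hardly any reads from its 3′ side. Its starts at bases 70 to 80 had 109 and 100 reads, and those at bases 30 to 40, in the part between the arms, 123 and 156. Reads that reached the last 3 bases made up 1.24% with DMSO and 1.501% with PD, against 11.7% and 13.3% in Rny1.

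**Figure D2:**
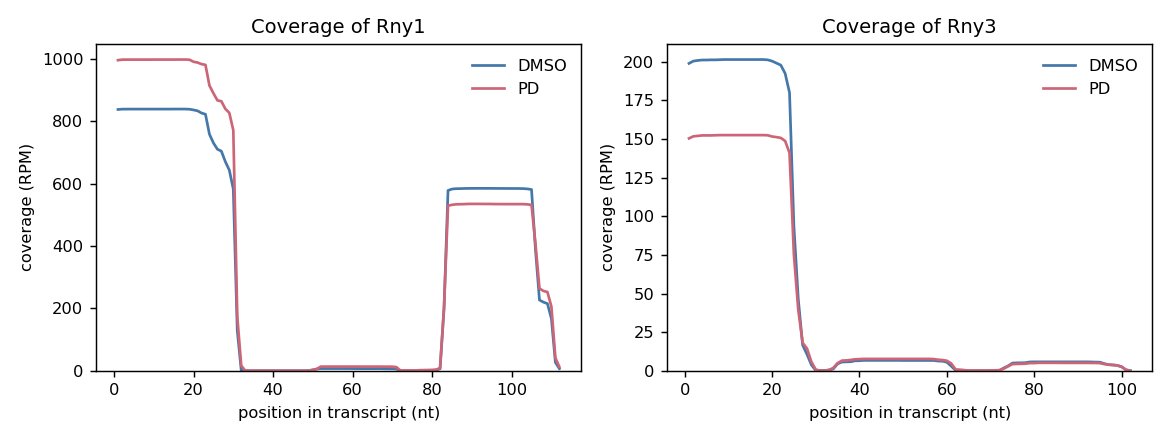
Coverage of Rny1 (left) and Rny3 (right) in RPM, by position in the transcript in nt, with DMSO in blue and PD in red, 1 library each. Rny1 has a 5′ block of 839 and 998 RPM and a second block over its 3′ side, and Rny3 has a 5′ block of 201 and 153 RPM with little beyond it.

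The most frequent length was 30 nt in Rny1 and 24 nt in Rny3, in both libraries. The RNA was cut from a gel at 18 to 30 nt, so that tags of 30 nt or more lie at or past the upper edge of the cut. Longer pieces of Rny1 may thus be missing from these lengths. The 30 nt tag of Rny1 had 8541 reads with DMSO and 12486 with PD, a fold change of 1.32 (1.28 to 1.35), whereas all reads of 30 nt had 4.53. The 31 nt tag had 2409 and 3294 reads, 1.23 (1.17 to 1.30), against 8.73 for all reads of 31 nt. The fold changes of these abundant tags were thus above 1 but below those of all reads of the same lengths, and lengths of 28 to 32 nt took 51.7% of the Rny1 reads with DMSO and 60.6% with PD. Relative to all clean reads of the same lengths, Rny1 as a whole had a ratio of 0.373, since its lengths alone would give a fold change of 2.90.

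Single bases at the 3′ end of the 5′ tag went with unlike fold changes. The 28 nt tag of Rny1 had 509 and 272 reads, 0.482 (0.414 to 0.559), and the 26 nt tag had 117 and 61, 0.470 (0.339 to 0.646), which was among the lowest 3 of the tags of all 8 RNAs with at least 100 reads. The 32 nt tag had 23 and 332 reads, a fold change of 13.0 (8.52 to 20.8), the highest of them, and here all reads of 32 nt gave a like value, 11.6. The 23 nt tag, a minor peak of length, had 1204 and 1392 reads, 1.04 (0.964 to 1.13). The 19 nt tag, picked after its values were seen, had 39 and 138 reads, 3.19 (2.22 to 4.67), beside 0.917 for all reads of 19 nt.

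In Rny3 the lengths of 23 to 27 nt were all lower with PD. The 24 nt tag had 1612 and 1358 reads, 0.759 (0.706 to 0.816), and the 22 nt tag 101 and 41 reads, 0.366 (0.248 to 0.531), the lowest fold change of the tags with at least 100 reads. The longer tags went the other way. The 28 nt tag had 122 and 177 reads, 1.31 (1.03 to 1.66), and the 29 nt tag 69 and 106 reads, 1.38 (1.01 to 1.90), again below the 1.61 and 2.40 of all reads of these lengths. The part of the length shift in these values was not tested.

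**Figure D3:**
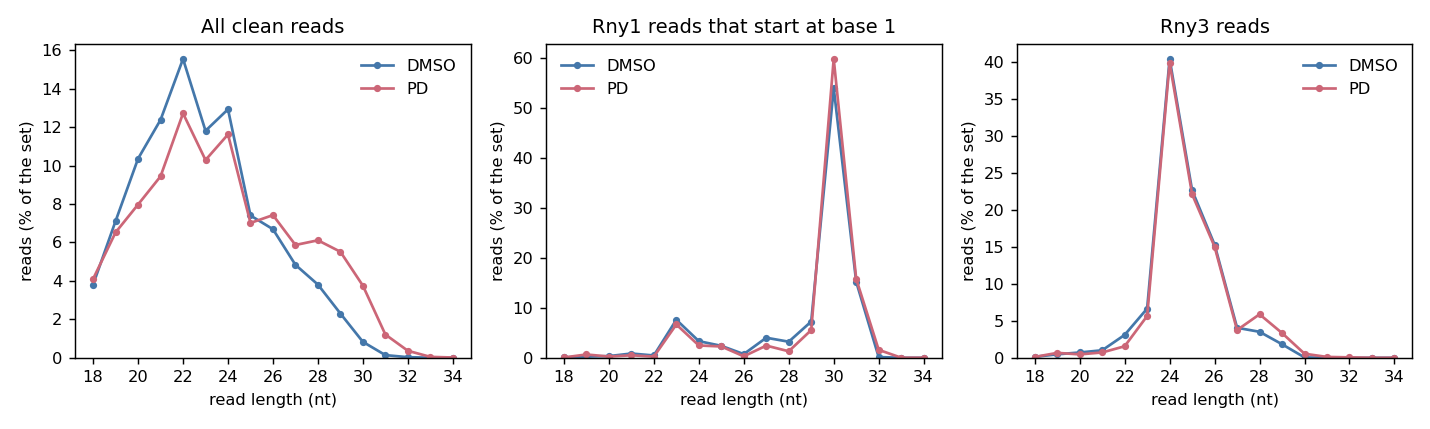
Share of reads (%) by read length in nt for all clean reads (left), the Rny1 reads that start at base 1 (middle) and the Rny3 reads (right), with DMSO in blue and PD in red, 1 library each. The Rny1 peak at 30 nt holds 54.1% and 59.9% of the reads that start at base 1 and the Rny3 peak at 24 nt 40.5% and 39.9%, while all clean reads peak at 22 nt and hold more reads of 28 to 32 nt with PD.

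The stretch between the arms of Rny1 was read rarely in both libraries. Its most frequent tag, bases 52 to 71, had 28 and 147 reads, a fold change of 4.73 (3.14 to 7.36), while all reads of 20 nt had 0.770. Reads that started at bases 47 to 57, which include this tag, numbered 130 and 280, 1.94 (1.57 to 2.41). Most of that difference lay in this 1 tag, which has one of the 3 highest fold changes. All reads from these starts made up less than 1% of the Rny1 reads in both libraries.

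Many reads from the 3′ side of Rny1 carried bases that the transcript does not have. Reads that matched no annotated transcript as a whole, but matched an RNA perfectly once 1 to 3 equal bases at their 3′ end were taken off, were counted as tailed. Tails of A were added to Rny1 in 3915 reads with DMSO and 5720 with PD, or 14.5 and 17.7 per 100 reads that match perfectly, against 1.40 and 1.29 for T, 0.0741 and 0.0957 for C and 0.104 and 0.182 for G. The A tails most often followed bases 109 and 110, just before the last bases of the transcript. Of all reads whose matching part ended at these bases, 45.5% (44.3 to 46.7) with DMSO and 51.2% (50.2 to 52.2) with PD ended in such an A tail, which held 2995 and 4699 reads. At base 109 alone the share was 60.7% and 67.8%, and at base 106 it was 13.1% and 14.0%. The end of the 5′ tag at base 30 showed hardly any, with 3 of its reads tailed with A with DMSO and 6 with PD. A tail makes a read longer, and the fold change of all clean reads was 1.21 at 27 nt and 1.61 at 28 nt. The tag of bases 84 to 110 has 27 nt without a tail and 28 nt with 1 A. The part of the length shift in the tailed shares was not tested. Whether an unannotated gene copy encodes the A tails was not tested, since no genome sequence was used here.

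Per 100 perfect reads, A tails were rarer on the other RNAs. They stood at 4.46 and 5.98 in Rny3 and at 0.643 and 0.979 in 7SL RNA. Most Rny3 reads lie at its 5′ end, so that these rates do not compare like ends. The most frequent A tail of Rny3, after base 99 near its 3′ end, had 50 and 54 reads, and the share tailed there was not computed. RNase MRP RNA differed in that its tails were of T, with 113 and 95 reads, of which 90 and 80 were 3 T after its last annotated base. Whether the gene encodes these T beyond the annotated end was not tested. Tailed reads are not part of the levels and shares given for the RNAs.

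7SL RNA was read from its interior, with 99.8% of the reads away from both ends in each library. Starts in 3 blocks held 79.4% of its reads with DMSO and 81.7% with PD. The largest started at bases 187 to 197, with 9989 reads with DMSO and 11546 with PD, a fold change of 1.04 (1.01 to 1.07). The next started at bases 69 to 79, with 3031 and 3341 reads, 0.993 (0.945 to 1.04), and the last at bases 266 to 276, near the 3′ end, with 1789 and 1979 reads, 0.997 (0.934 to 1.06). Of the tags from base 49, outside these blocks and picked after their values were seen, 3 were at least 1.5-fold lower with PD. Bases 49 to 67 had 261 and 146 reads, 0.504 (0.409 to 0.620), bases 49 to 68 had 63 and 40, 0.572 (0.375 to 0.864), and bases 49 to 69 had 76 and 43, 0.510 (0.342 to 0.751). They were 3 of the 4 tags of 7SL RNA with at least 100 reads that were at least 1.5-fold lower. A longer tag from the same base, bases 49 to 70, had 135 and 117 reads, 0.781 (0.604 to 1.008), an interval that included equal levels.

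Within and next to the largest 7SL block the place where reads ended differed between the libraries. The most frequent tag, bases 192 to 212, had 1488 and 1344 reads, 0.814 (0.755 to 0.877), beside 0.763 for all reads of its length. The 18 nt tag of bases 191 to 208 had 229 and 888 reads, 3.49 (3.02 to 4.06), beside 1.08 for all reads of 18 nt. Other tags with the same last base were then looked up, after their values were seen. The tag from base 190 had 51 and 148 reads, 2.61 (1.89 to 3.67), and that from base 189 had 79 and 188, 2.14 (1.64 to 2.83), but that from base 188 had 83 and 128, 1.39 (1.05 to 1.85), and that from base 186, just before the block, had 296 and 374, 1.14 (0.9748 to 1.33). From the same start, a tag 4 bases shorter, bases 186 to 204, had 81 and 38 reads, 0.423 (0.280 to 0.629), which was among the lowest 3 fold changes. The most frequent tag of the block near the 3′ end, bases 271 to 295, had 992 and 1150 reads, 1.04 (0.959 to 1.14). All these tags also match other 7SL copies.

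7SK RNA was read from its interior too, with 99.7% and 99.8% of its reads away from the ends. Starts at bases 240 to 250 gave the highest block, with 955 reads with DMSO and 1231 with PD, 1.16 (1.07 to 1.27). The tag of bases 244 to 266, which matches Rn7sk alone, had 130 and 156 reads, 1.08 (0.851 to 1.38). The tag of bases 127 to 151, which matches 4 other genes as well, had 71 and 137 reads and passed 1.5-fold with 1.74 (1.30 to 2.35). Its block, at bases 122 to 132, did not, with 418 and 515 reads, 1.11 (0.974 to 1.27).

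In RNase P RNA the fold change differed between stretches. Its highest block started at bases 220 to 230, with 383 and 502 reads, 1.18 (1.03 to 1.35), and the most frequent tag there, bases 225 to 244, had 85 and 118 reads, 1.25 (0.938 to 1.67). Starts at bases 147 to 157 had 116 and 239 reads, 1.86 (1.48 to 2.34), and in that block the tag of bases 152 to 171 had 12 and 69 reads, 5.18 (2.78 to 10.5), beside 0.770 for all reads of 20 nt. A further block at bases 33 to 43 had 41 and 83 reads, 1.82 (1.24 to 2.72), but its reads are long, and all reads of these lengths gave 3.51.

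RNase MRP RNA had a sharp 5′ edge like the Y RNAs. All its 107 and 117 reads near the 5′ end started at base 5 of the longer annotated transcript, 1 base before the first base of the shorter one, and they made up 27.4% and 25.2% of its reads. The most frequent tag, bases 5 to 32, had 55 and 45 reads, 0.737 (0.486 to 1.11), and the tag of bases 132 to 151 had 19 and 35, 1.66 (0.924 to 3.07), an interval that included equal levels. Of its 281 positions, 19 had no read.

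Vault RNA gave few reads, and its largest blocks lay toward both ends of the transcript. Starts at bases 112 to 122 had 81 and 85 reads, 0.945 (0.689 to 1.30), and those at bases 3 to 13 had 55 and 47, 0.770 (0.510 to 1.16). The most frequent tag, bases 117 to 140 and 24 nt long, had 16 and 13 reads, and the tag of bases 8 to 29 had 14 and 9. No vault RNA tag reached 100 reads, and for these blocks and tags the intervals included equal levels. Single positions, picked after their values were seen, went both ways in few reads. The start at base 117 had 55 and 39 reads, 0.639 (0.413 to 0.981), and that at base 121 had 2 and 15, 6.76 (1.57 to 60.9). The end at base 141 had 27 and 15 reads, 0.5005 (0.2475 to 0.975).

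**Figure D4:**
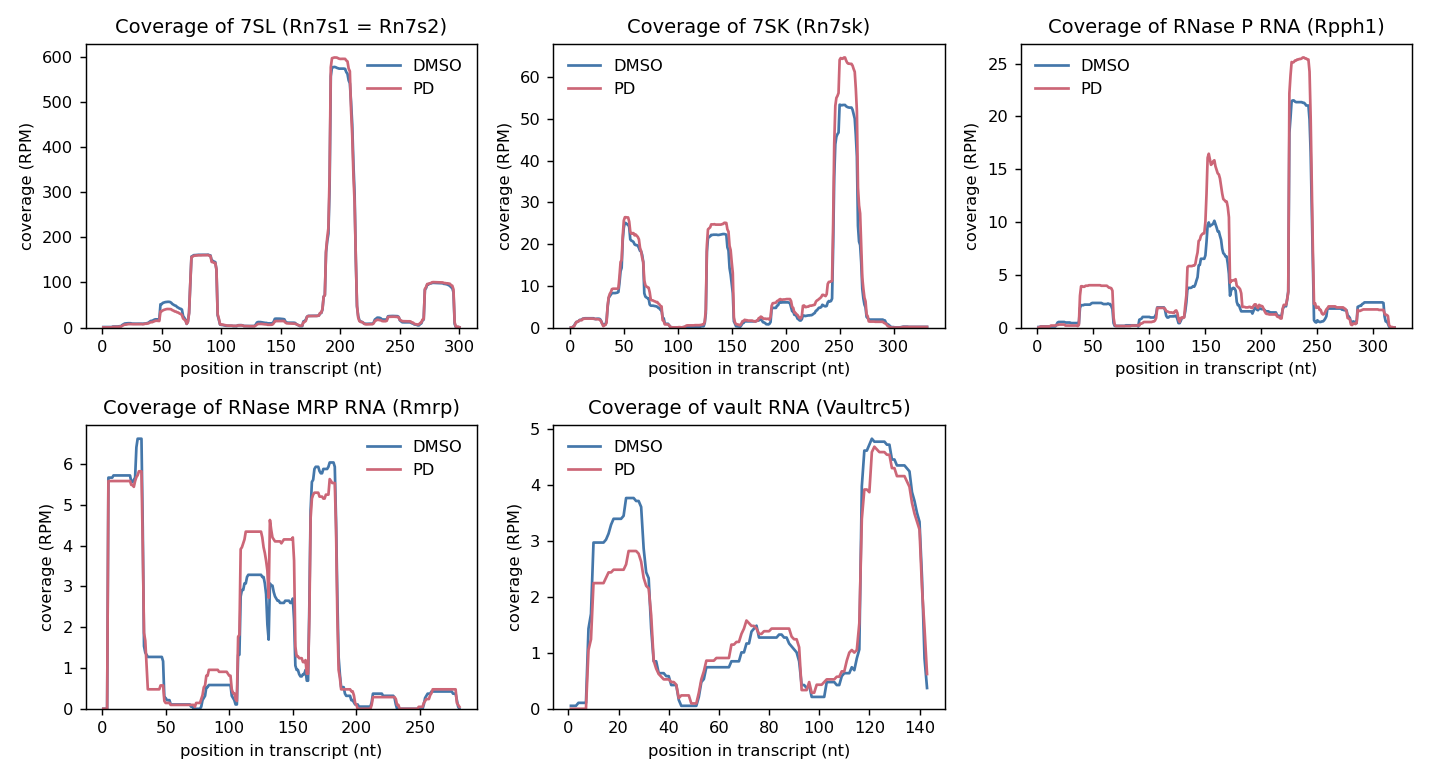
Coverage in RPM by position in the transcript in nt of 7SL RNA, 7SK RNA, RNase P RNA, RNase MRP RNA and vault RNA, with DMSO in blue and PD in red, 1 library each and a vertical scale of its own for each RNA. 7SL RNA peaks at 578 and 599 RPM over base 195, and the RNase P RNA block that starts at bases 147 to 157 stands higher with PD.

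Of the 110 tags of these RNAs with at least 100 reads over both libraries, 12 were at least 1.5-fold higher with PD and 11 at least 1.5-fold lower. Over all 18076 such tags, 17.2% were higher and 22.5% lower. The median fold change was 1.02 for the tags of these RNAs and 0.907 for all tags. Rny1 had 5 higher and 4 lower tags of 28, Rny3 had 0 and 3 of 8, 7SL RNA 5 and 4 of 63, and 7SK RNA 2 and 0 of 6. RNase P RNA, with 4 such tags, and RNase MRP RNA, with 1, had none past 1.5-fold. Relative to all clean reads of the same length, 14 of the 110 tags were at least 1.5-fold higher and 14 at least 1.5-fold lower. On that scale Rny1 had 2 higher and 7 lower tags, Rny3 0 and 4, 7SL RNA 6 and 2, 7SK RNA 3 and 0, RNase P RNA 3 and 0, and RNase MRP RNA 0 and 1. Among the 24 tags with at least 1000 reads, 1 was higher and 1 lower.

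**Figure D5:**
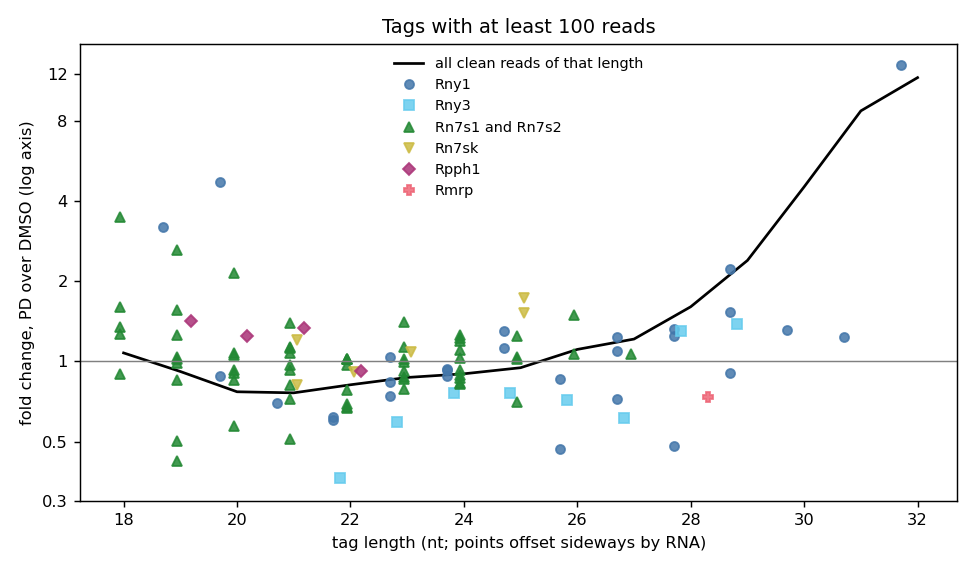
Fold change (PD over DMSO, log axis) of the 110 tags with at least 100 reads, by tag length in nt, with a point for each tag and a symbol for each RNA. The black line is the fold change of all clean reads of that length, which reaches 4.53 at 30 nt and 8.73 at 31 nt, where the Rny1 tags lie at 1.32 and 1.23.

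Reads from the mRNAs of the proteins that bind these RNAs were counted from a fixed list, which names Ro60 and La, the vault, 7SK and signal recognition particle proteins and the RNase P and MRP subunits. Of 34 such genes in the annotation, 16 had at least 100 reads, of which 3 were at least 1.5-fold higher with PD and 0 lower, with a median fold change of 1.03, beside 10.2% of all gene symbols with at least 100 reads higher and 2.16% lower. The 3 were Cdk9, the kinase held by 7SK RNA, with 1191 and 2487 reads, the RNase P subunit Rpp40 with 1287 and 2616, and Srp19 of the signal recognition particle with 68 and 115. Such reads are small pieces that match these transcripts and are no measure of the mRNA level. Of 112 other small structured RNA genes with at least 100 reads, chiefly U RNAs and 5S rRNA copies that share tags, 2 were higher and 3 lower, with a median of 0.872, beside the same 10.2% and 2.16% over all gene symbols. They included the spliceosomal RNA Rnu6, with 2846 and 5662 reads. Many of the 5S copies held the same 29309 and 28362 reads, with a fold change of 0.872, which is also the median. The 112 genes are thus not 112 separate RNAs.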

How the data were processed

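Small RNA of J1 mESCs was sequenced by the authors, who cut RNA of 18 to 30 nt from a gel, discarded reads of low quality, of adapters, of contaminants or shorter than 18 nt, and merged identical reads. The authors deposited raw counts of clean reads for each distinct tag. The labels name mm9, but the tags carry no coordinates, and an aligner is not given in the sources used here. The total line at the end of each file was left out.

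Tags were matched without mismatches to GENCODE M21 transcripts (GRCm38) with Python 3.11.15 and numpy 2.4.6, and a tag that matched several genes was counted for each. Structures were predicted with ViennaRNA 2.7.2. Fold changes of RPM have exact Clopper-Pearson intervals (SciPy 1.17.1), and shares have Wilson intervals. Genes and tags with at least 100 reads over both libraries were called at 1.5-fold. The quasi-likelihood test of edgeR and DESeq2 need replicates and were not run, and edgeR 4.0.16 and DESeq2 1.42.0 (R 4.3.3) gave normalization factors only. The named tags were the most frequent of each RNA, the most frequent that does not overlap it, and the 3 highest and 3 lowest fold changes among tags with at least 100 reads; others are marked as picked later. Read blocks are starts within 5 nt of the 3 most frequent starts over 10 nt apart, with ends within 2 nt of the most frequent. The RNAs and gene lists were chosen with earlier results of these data known. The procedure was tested on simulated data. Alternatives were other denominators, shared tags, mismatches, tails, read minimums, lengths and end windows.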

Additional observations from a re-analysis of the deposited data

How the results depend on the processing

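Each RNA was recomputed under 14 alternatives. The lowest and highest fold changes were 0.373 and 1.31 for Rny1, 0.744 and 0.937 for Rny3, 0.754 and 1.14 for vault RNA, 1.12 and 1.40 for 7SK RNA, 0.8 and 1.21 for 7SL RNA, 0.943 and 1.30 for RNase MRP RNA, and 0.776 and 1.54 for RNase P RNA. Rny3 and 7SK RNA kept their direction in all of them. The highest values came with reads of 20 to 24 nt as the denominator, which scales every RNA by 1.21. With it 1 of the 8 RNAs passed 1.5-fold (RNase P RNA), and relative to reads of the same length 1 did (Rny1, lower). The share of the 8 RNAs in the clean reads, with DMSO and with PD, was 0.156% and 0.170% with tags of the members alone, 0.207% and 0.218% with shared tags divided, 0.310% and 0.326% with A or T tails, 0.308% and 0.324% with 1 mismatch, 0.270% and 0.279% with tags of at least 10 reads, and 0.271% and 0.275% with reads of 18 to 30 nt. With at least 1000 reads, 1 tag was higher and 1 lower. Tags of 21 nt or more only were added after seeing the data and gave 0 of 8. Of 96 shares of reads by place in the RNA, 30 left their interval. No paired analysis was possible because each treatment has 1 library. Without replicates the variation between cultures is unknown.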
